A study of Homo sapiens with 16 samples.

Results

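Integrins are the receptors by which cells hold the extracellular matrix, and fibronectin and the laminins are the matrix proteins that many of them bind. Each integrin is a pair of an alpha and a beta subunit, each laminin is a trimer of an alpha, a beta and a gamma chain, and a product is formed only where all its chains are made in the same cell. Kidney tubules rest on a laminin-rich basement membrane, whereas fibronectin is a protein of the interstitial matrix, and gain of fibronectin is a known feature of clear cell renal cell carcinoma (ccRCC). The 39 genes described here are the protein-coding integrin subunits (18 alpha, 8 beta), the laminin chains (12) and fibronectin (FN1), chosen by gene symbol from 57773 genes in the count table. The rule itself reads symbols only.

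RNA was sequenced from 4 human ccRCC cell lines, CAKI-2, 786-O, 769-P and A498, each transduced with a lentivirus that carries Cas9 and a guide RNA and kept as puromycin-selected populations, not as clones. Every line had 1 library with a non-targeting guide (sgCtrl) and 2 libraries with guides 4 and 5 against KDM5C, an X-linked histone H3 lysine 4 demethylase that is recurrently mutated in ccRCC. In CAKI-2 and 786-O, 2 further libraries carried guides 2 and 4 against KDM5D, the Y-linked relative of KDM5C, which gives 16 libraries in 10 groups. The question of the design was which genes depend on KDM5C or KDM5D in these lines, and the lines themselves were the other axis of comparison.

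The libraries held 23.4M to 41.6M counts each (M, 10 to the power of 6), and values below are counts per M of the scaled library total (CPM). The targeted transcript KDM5C was at 26.2% to 57.3% of the level of the control in the 8 sgKDM5C libraries and at 91.5% to 106% in the 4 sgKDM5D libraries. KDM5D transcript was at 76.2% to 103% in the sgKDM5D libraries and at 66.0% to 107% in the sgKDM5C libraries of the same lines. Since small indels need not change transcript level, this neither shows nor denies a mutation. The summed level of 7 renal markers was 1757 to 3466 CPM, but CA9, a target of the hypoxia response in ccRCC, was at 0 in the controls of 786-O, CAKI-2 and 769-P and at 9.53 CPM in that of A498. The keratin KRT8 was the largest part of that sum (1145 CPM in the 786-O control and 2466 CPM in that of A498), whereas PAX2 was at 5.335 to 60.3 CPM. The sums for 5 leukocyte, 2 endothelial and 3 fibroblast markers were at most 3.59, 3.36 and 1.45 CPM. Among the libraries of 786-O, that of sgKDM5C guide 4 had the largest mean distance to the other libraries of its line (2.23, as log2 root mean square over 500 variable genes), followed by sgKDM5D guide 2 (2.12), against 1.58 to 2.03 in the remaining 14.

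Stretches of sequence before the transcription start are shown for 4 genes described in detail: LAMA3 and LAMB3, chains of the same trimer (laminin-332) with a narrow and a wide range between lines, LAMA5, the alpha chain of laminin-511, and FN1. All are the 250 bases upstream of a RefSeq start in GRCh38.p14, read 5′ to 3′ on the strand of the gene. For LAMA3 (chr18:23872770-23873019, plus strand) and LAMB3 (chr1:209651375-209651624, minus strand, 1 of 3 listed starts) the capitals mark the AP-1 motif TGAGTCA or its complement TGACTCA. For LAMA5 (chr20:62367313-62367562, minus strand) and FN1 (chr2:215436069-215436318, minus strand) the capitals mark the GC box GGGCGG or its complement CCGCCC, with overlapping matches joined.
LAMA3: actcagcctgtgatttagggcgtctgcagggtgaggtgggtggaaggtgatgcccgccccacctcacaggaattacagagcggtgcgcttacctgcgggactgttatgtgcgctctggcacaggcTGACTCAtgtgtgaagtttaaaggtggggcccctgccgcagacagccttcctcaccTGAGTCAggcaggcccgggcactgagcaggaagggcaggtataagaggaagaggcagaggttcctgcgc
LAMB3: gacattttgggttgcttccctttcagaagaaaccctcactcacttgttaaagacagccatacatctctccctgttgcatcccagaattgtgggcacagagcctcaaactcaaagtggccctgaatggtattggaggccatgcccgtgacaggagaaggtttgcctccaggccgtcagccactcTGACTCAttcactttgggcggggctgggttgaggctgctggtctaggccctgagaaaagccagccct
LAMA5: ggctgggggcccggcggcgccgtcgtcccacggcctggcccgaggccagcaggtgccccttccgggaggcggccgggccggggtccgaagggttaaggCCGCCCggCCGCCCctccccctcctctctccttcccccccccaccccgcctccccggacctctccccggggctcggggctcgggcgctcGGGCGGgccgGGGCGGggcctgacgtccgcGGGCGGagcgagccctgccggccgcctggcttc
FN1: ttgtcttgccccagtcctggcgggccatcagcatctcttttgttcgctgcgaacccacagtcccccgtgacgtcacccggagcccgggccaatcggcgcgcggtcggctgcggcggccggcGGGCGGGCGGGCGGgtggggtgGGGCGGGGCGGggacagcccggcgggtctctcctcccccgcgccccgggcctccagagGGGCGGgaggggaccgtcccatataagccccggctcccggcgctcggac

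LAMA3 held 2 AP-1 motifs, beginning 125 and 69 bases before the start. The LAMB3 window shown held 1, beginning 67 bases before its start. That window was shown because it held the motif, and the other listed LAMB3 windows did not hold it. LAMA3 and LAMB3 were the only 2 of 27 members with an entry that held the motif in any listed window. By window, 5.9% of the 34 of members and 4.2% of the 35116 of all genes held it, so that members were near the background. LAMA5 and FN1 each held 32 CpG dinucleotides, against a median of 11 over all windows, with 5 and 6 GC boxes. A GC box was found in 52.9% of the member windows and 42.6% of all windows. Members without an entry included ITGB4, ITGA3, ITGA7, ITGA9, ITGAD, ITGAL, ITGAX, ITGB2, ITGB3, LAMA1 and LAMC3. A match describes the letters and does not show that a factor binds.

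The lines differed far more than the guides in every family. All 38 members with enough counts to test differed between the 4 lines at an adjusted p under 0.05 (edgeR quasi-likelihood F-test, Benjamini-Hochberg adjustment over 20175 genes), where the background was 91.6% of all genes tested (91.9% at an unadjusted p under 0.05), so the count itself does not mark the members. ITGA8, the alpha subunit of a fibronectin and nephronectin receptor, had at most 1 count in a library and was not tested. In size, the differences were wider than over the table as a whole. For the 34 members whose mean reached 20 counts, the median difference between the highest and the lowest line was 3.45 in mean log2 CPM (prior count 2), against 1.65 over 15523 genes held to the same minimum, and no test was made of this contrast. On that scale differences over 10-fold were found in 18 members (52.9%; all genes 23.3%) and over 100-fold in 5 (14.7%; all genes 5.64%), 4 of these being laminin chains. Among genes of the partner lists described below, the same log2 difference ran from 0.392 (SDC4) to 12.8 (FGB), so wide ranges were not particular to the members. Folds given below for single genes are ratios of mean CPM.

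**Figure D1:**
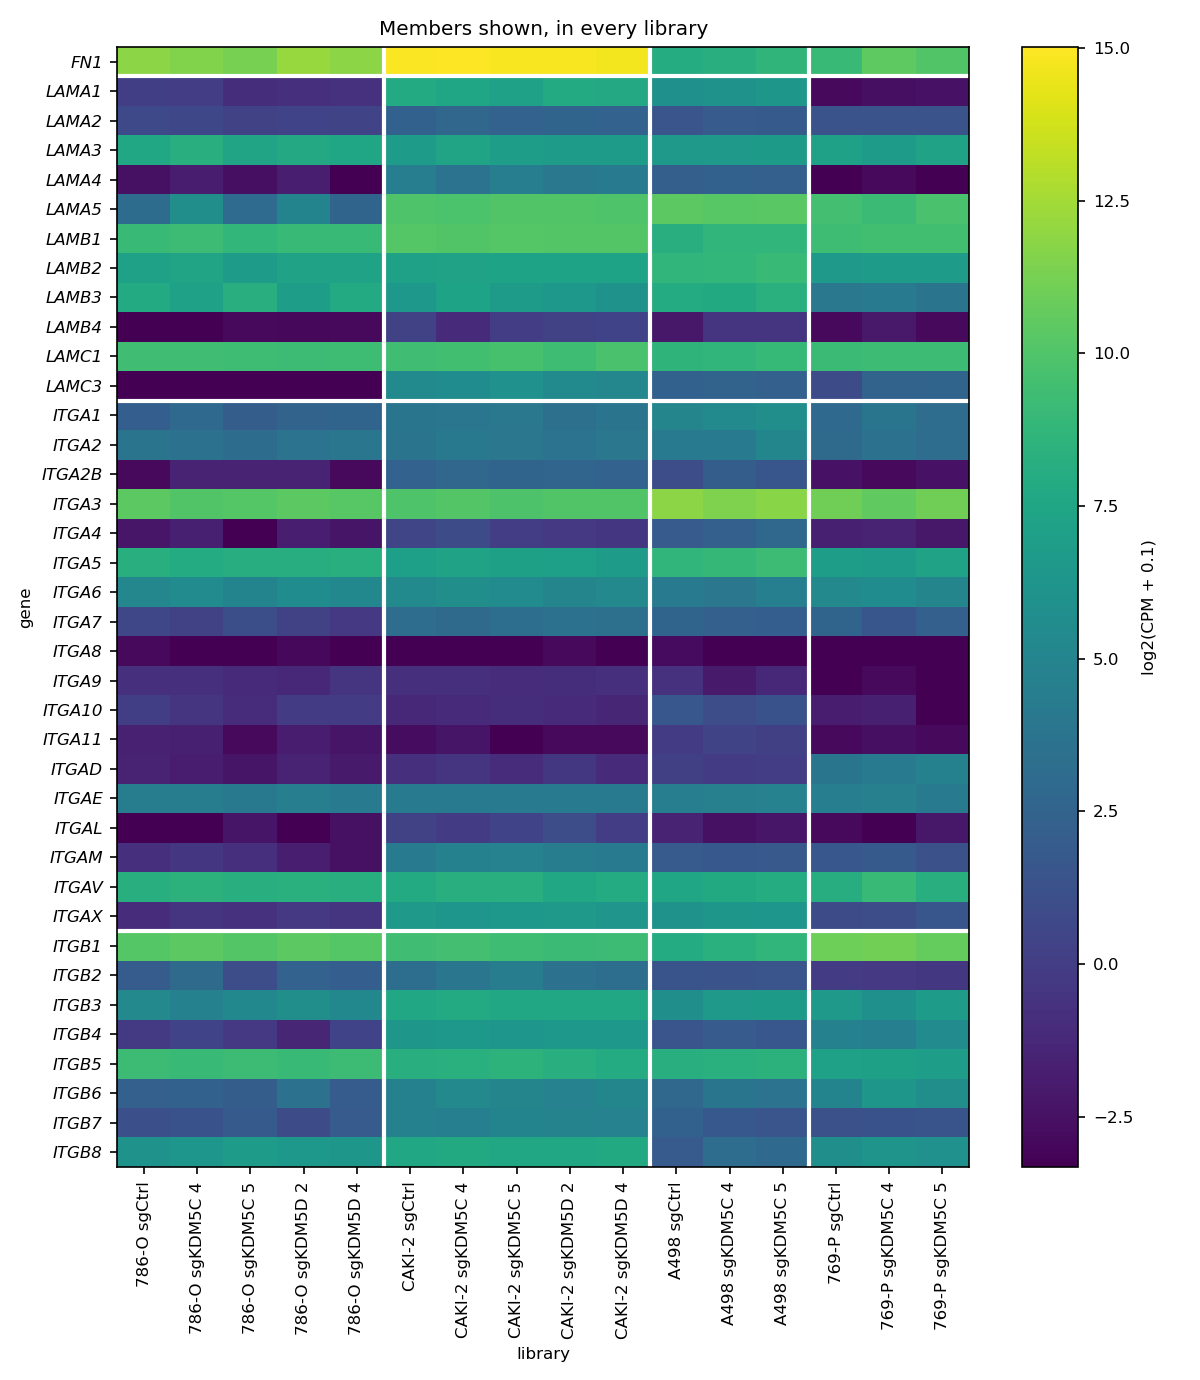
Level of 38 members (rows) in the 16 libraries (columns, separated by cell line) as log2(CPM + 0.1), with brighter colours for higher levels. FN1 is brightest in the 5 CAKI-2 libraries, ITGB4 is darker in 786-O and A498, and LAMA5 is dark in the 786-O libraries except those of sgKDM5C 4 and sgKDM5D 2, which are intermediate.

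The level of a line is given as the mean of its sgCtrl and 2 sgKDM5C libraries with their SD (n = 3), so that each line enters with the same guides, and single libraries are listed in the order sgCtrl, sgKDM5C 4, sgKDM5C 5. These libraries are separately infected populations of 1 cell line. A p-value between lines rests on the spread between the 2 guides of a target, pooled over all groups with 2 guides, sgKDM5D included. It measures neither the SD of the 3 libraries given beside it nor the spread between patients. Of the 38 members, CAKI-2 had the highest level in 20, A498 in 11, 769-P in 5 and 786-O in 2. The lowest level was in 786-O for 14, in 769-P for 13, in A498 for 9 and in CAKI-2 for 2. The shares of all genes by line were not taken beside these counts, so they do not mark the members. In ITGA11, ITGA2B, ITGA4, ITGAL, LAMA4 and LAMB4, among others, the lowest line was not separated from the next (adjusted p 0.0943 to 0.926, edgeR). The lowest level of these named members was under that of 3 counts. Between pairs of lines, the members called were 28 for 786-O and CAKI-2 (background 65%), 33 for 786-O and A498 (70%), 26 for 786-O and 769-P (52.4%), 32 for CAKI-2 and A498 (67.4%), 31 for CAKI-2 and 769-P (65.8%) and 28 for A498 and 769-P (71.1%). Of the 31 that separated CAKI-2 from 769-P, 26 were higher in CAKI-2. Over the whole table, 13268 of 20175 genes were called for this pair, and 7309 (36.2% of those tested) were higher in CAKI-2.

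FN1 (ENSG00000115414; GRCh37 chr2:216225163-216300796), which encodes the fibronectin dimer subunit, was the most abundant member in CAKI-2. In CAKI-2 it reached 31230, 33240 and 29520 CPM, and 29830 and 26080 CPM with the KDM5D guides, or 2.70% to 3.54% of all counts of a library. 786-O held 3664, 3014 and 2419 CPM, 769-P held 551, 1389 and 1038 CPM, and A498 held 264, 305 and 415 CPM. The libraries of different lines did not overlap, and every neighbour in the order CAKI-2, 786-O, 769-P, A498 differed (largest adjusted p = 1.27e-06, edgeR). CAKI-2 stood 95.6-fold above A498 (log2 difference 6.59, SE 0.207, adjusted p = 2.31e-11).

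LAMB3 (chr1:209788215-209825770 in GRCh37), the beta chain of laminin-332, the laminin that anchors epithelia through hemidesmosomes, was lowest in 769-P, with 15.9, 19.2 and 13.2 CPM against 252, 225 and 320 CPM in A498, 89.0, 160 and 112 CPM in CAKI-2 and 233, 142 and 303 CPM in 786-O. This difference of 769-P from A498 was 16.5-fold (log2 difference 4.04, SE 0.335, adjusted p = 7.33e-08), and A498 and 786-O were not separated (adjusted p = 0.494). LAMA3, the alpha chain of the same laminin, varied far less: it lay between 92.5 and 310 CPM in all 16 libraries, was highest in 786-O (225 ± 75.6 CPM) and 2.29-fold lower in A498 (98.4 ± 5.86 CPM).

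LAMA5 (chr20:60883011-60942368 in GRCh37), the alpha chain of laminin-511 and laminin-521, the main laminins of mature epithelial basement membranes, was low and uneven in 786-O. There it read 9.02 CPM in sgCtrl, 52.1 and 8.44 in sgKDM5C 4 and 5, and 30.1 and 5.81 in sgKDM5D 2 and 4. The high libraries of 786-O were thus 1 of each pair of guides, and the same libraries had the lowest LAMB3 values of their line (142 and 118 CPM, against 233 to 303 CPM in the others). LAMA5 was at 1002, 897 and 1056 CPM in CAKI-2, 1326, 1193 and 1257 CPM in A498 and 756, 587 and 870 CPM in 769-P, with no overlap with 786-O. The fall from A498 to 786-O was 54.3-fold (log2 difference 5.96, SE 0.633, adjusted p = 1.05e-06, edgeR), and was 7.11 on the log2 scale without the sgKDM5C 4 library of 786-O. The other 3 lines were not separated from each other (adjusted p from 0.190 to 0.556).

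LAMB1 and LAMC1, the beta and gamma chains shared by laminin-111, laminin-211, laminin-411 and laminin-511, were expressed in every library, at 309 to 1166 CPM and 393 to 860 CPM. Their ranges between lines were 2.83-fold, with LAMB1 highest in CAKI-2 (1115 ± 73.6 CPM), and 1.68-fold. LAMB2, the beta chain of laminin-521, was highest in A498, at 431, 450 and 517 CPM, against 90.3 to 164 CPM in the other lines (A498 over 769-P 4.51-fold, adjusted p = 2.99e-09, edgeR). The alpha chains LAMA1, LAMA4 and LAMA5 spanned more than these, and LAMA2 and LAMA3 did not span more than LAMB2 (4.07-fold and 2.29-fold).

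The rarer chains LAMA1, LAMA4 and LAMC3 were restricted to part of the lines. LAMA1, the alpha chain of laminin-111, a laminin of the early embryo, was at 233, 175 and 143 CPM in CAKI-2 and 57.9, 69.0 and 84.7 CPM in A498, but at most 0.978 CPM in 786-O and not over 0.0822 CPM in 769-P. LAMA4, the alpha chain of laminin-411 of vessels and muscle, was at 22.7, 12.5 and 22.5 CPM in CAKI-2 and 4.68, 5.07 and 4.90 CPM in A498, and at most 0.197 and 0.0355 CPM in 786-O and 769-P. LAMC3, a gamma chain of restricted expression, had 0 counts in all 5 libraries of 786-O and reached 40.9, 48.0 and 62.1 CPM in CAKI-2, at least 467-fold higher when each empty library is set at 3 counts. In the remaining lines LAMC3 was at 1.77 to 5.80 CPM. LAMA2, of muscle laminin-211, stayed at 1.11 to 6.52 CPM, and LAMB4 had at most 42 counts in a library. CAKI-2, the line with the most LAMA4, also had the highest sum of the endothelial markers CDH5 and VWF (1.71 to 3.36 CPM, against at most 0.488 CPM elsewhere), and a part of this in the LAMA4 difference was not tested.

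**Figure D2:**
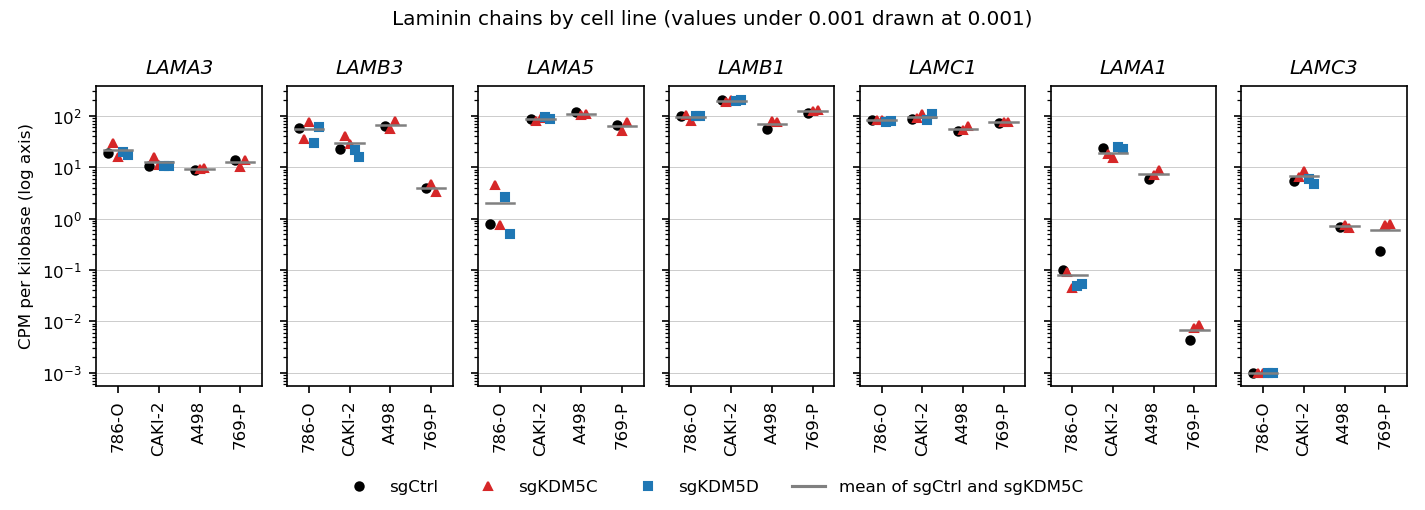
CPM per kilobase of the canonical transcript (log axis) of 7 laminin chains, 1 symbol per library, with grey lines at the mean of the sgCtrl and sgKDM5C libraries of a line. LAMB3 drops in 769-P alone and LAMA5 in 786-O alone, whereas LAMA3, LAMB1 and LAMC1 stay within 1 log10 unit across all lines.

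Levels of different genes were set side by side only after division by the length of the canonical transcript (CPM per kilobase). Which transcripts the lines used was not measured, and where a shorter one was used the value per kilobase is too low. For LAMA3 the length was 10651 bases. In CPM per kilobase, LAMA3 was at 12.5 ± 2.81 (SD, n = 3) in CAKI-2 and reached 21.2 ± 7.10 in 786-O, whereas LAMB3 was at 4.01 ± 0.754 in 769-P. The least abundant chain of laminin-511 was LAMA5 in 786-O (2.03 ± 2.19, with its partner LAMC1 at 83.0 ± 1.61) and LAMC1 in A498 (55.6 ± 7.46). In CAKI-2 LAMA5 (86.2 ± 7.07) and LAMC1 (93.4 ± 11.3) lay within their spread, as did LAMA5 (64.6 ± 12.5) and LAMC1 (75.5 ± 2.36) in 769-P. For laminin-111 the least abundant chain was LAMA1 in all 4 lines, at 19.0 ± 4.71 in CAKI-2, 7.32 ± 1.40 in A498, 0.0794 ± 0.0304 in 786-O and 0.00672 ± 0.00220 in 769-P. Whether trimers were formed was not measured.

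Among the receptors of laminin, ITGA3 (chr17:48133332-48167845 in GRCh37), the alpha subunit of the main receptor for laminin-332 and laminin-511, was the most abundant integrin alpha transcript per kilobase in every line, with 64.4% to 78.8% of the sum over alpha subunits. It read 3655, 2854 and 3478 CPM in A498, 2077, 1527 and 2101 CPM in 769-P, 1326, 1044 and 1169 CPM in 786-O, and lastly 1025, 1096 and 964 CPM in CAKI-2. A498 was above 769-P (adjusted p = 9.58e-05, edgeR), and 786-O and CAKI-2 were not separated (adjusted p = 0.228). ITGA6, the alpha subunit shared by the laminin receptors alpha6 beta1 and alpha6 beta4, was low in comparison, at 15.3 to 52.6 CPM, and lowest in A498 (19.3 ± 4.42 CPM, 2.43-fold below CAKI-2).

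ITGB4, the hemidesmosomal partner of ITGA6, was present in a line-dependent way. CAKI-2 held 82.5, 86.0 and 80.0 CPM and 769-P held 26.8, 23.6 and 45.8 CPM. A498 fell to 2.72, 3.83 and 3.04 CPM and 786-O to 0.752, 1.16 and 0.718 CPM. All neighbours in this order differed (largest adjusted p = 0.000403, edgeR), and CAKI-2 stood 94.4-fold above 786-O. ITGB4 per kilobase exceeded ITGA6 in CAKI-2 (14.1 ± 0.505 and 8.07 ± 0.892) and was at 0.149 ± 0.0418 against 6.51 ± 1.31 in 786-O. ITGA6 itself did not separate 786-O from 769-P (adjusted p = 0.780, edgeR). ITGA7, a laminin receptor of muscle, was at 0.735 to 11.97 CPM.

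**Figure D3:**
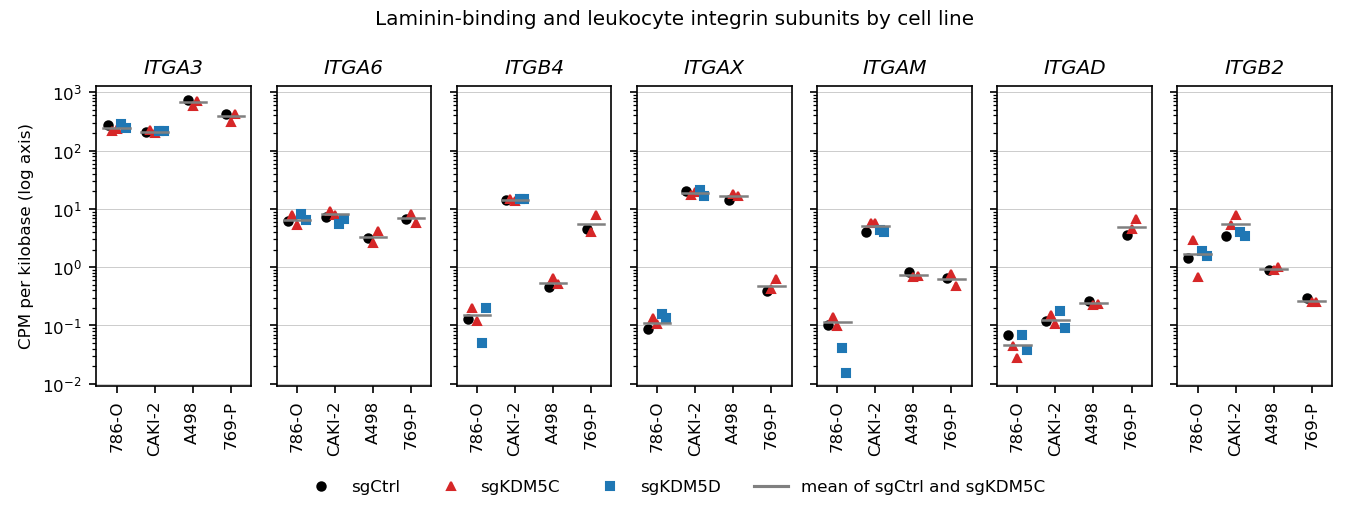
CPM per kilobase (log axis) of the laminin-binding subunits ITGA3, ITGA6 and ITGB4 and the leukocyte subunits ITGAX, ITGAM, ITGAD and ITGB2, drawn as 1 symbol per library by line, with grey lines at the line means. ITGA3 lies over 100 in all lines, ITGB4 spans from under 0.1 to over 10, and ITGAD is high in 769-P alone.

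ITGB1, the common beta subunit of most matrix receptors, led the beta subunits per kilobase in all 4 lines, with 48.6% of their sum in A498 and 88.1% in 769-P. It read 1977, 2239 and 1653 CPM in 769-P and 1157, 1347 and 1098 CPM in 786-O. The level was 686, 750 and 645 CPM in CAKI-2 and 254, 316 and 424 CPM in A498, and every neighbour differed (largest adjusted p = 0.00113, edgeR). The order of the lines for ITGA3 was thus not that for its partner: A498 had the most ITGA3 and the least ITGB1, and per kilobase ITGA3 exceeded ITGB1 in A498 (681 and 88.7) and CAKI-2 (210 and 186) and fell below it in 786-O (241 and 321) and 769-P (389 and 524). An lncRNA on the other strand, ITGB1-DT, had at most 728 counts against up to 62986 for ITGB1.

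The order of FN1 between lines was not that of ITGA5. ITGA5 (chr12:54789045-54813050 in GRCh37), the alpha subunit of the classical fibronectin receptor, was highest in A498, the line with the least FN1, at 441, 487 and 607 CPM. It was lower in 786-O (306, 244 and 277 CPM), and lower still in CAKI-2 (130, 150 and 135 CPM) and 769-P (125, 110.7 and 150 CPM), which were not separated (adjusted p = 0.531, edgeR). A498 was 3.98-fold above 769-P (log2 difference 1.99, SE 0.143, adjusted p = 1.67e-08). Per kilobase, ITGA5 was below ITGB1 in 786-O (64.8 ± 7.28), CAKI-2 (32.5 ± 2.52) and 769-P (30.3 ± 4.67), and above it only in A498 (121 ± 20.2). ITGAV, the alpha subunit of the vitronectin and RGD receptors, was among the least variable members, with a 1.64-fold range and values of 175 to 520 CPM.

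The beta subunits that pair with ITGAV differed strongly. ITGB8, the subunit of the receptor that holds and activates latent TGF-beta, was at 193, 227 and 203 CPM in CAKI-2, 69.2, 81.3 and 108 CPM in 786-O and 55.7, 70.9 and 60.5 CPM in 769-P. In A498 it was at 3.79, 9.15 and 7.49 CPM, 30.5-fold below CAKI-2 (log2 difference 5.02, SE 0.163, adjusted p = 2.41e-11, edgeR). ITGB6, the epithelial subunit for the same ligand, was at 31.1, 84.3 and 53.2 CPM in 769-P, 26.3, 40.3 and 32.7 CPM in CAKI-2, 7.10, 14.2 and 12.8 CPM in A498 and 4.74, 5.16 and 4.24 CPM in 786-O, an 11.9-fold range. In 786-O the sgKDM5D 2 library alone reached 11.3 CPM.

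ITGB3, which pairs with ITGAV in the vitronectin receptor, was highest in CAKI-2 (209, 237 and 208 CPM) and lowest in 786-O (38.7, 26.2 and 38.3 CPM), a 6.34-fold range. ITGB5 ran the other way between these lines, at 602, 526 and 601 CPM in 786-O, but 293, 317 and 366 CPM in CAKI-2 (adjusted p = 1.99e-05, edgeR), and was lowest in 769-P (147, 135 and 120 CPM). Per kilobase, ITGB5 was the second beta subunit in each line, from 30.2 ± 3.11 in 769-P to 130 ± 9.82 in 786-O.

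**Figure D4:**
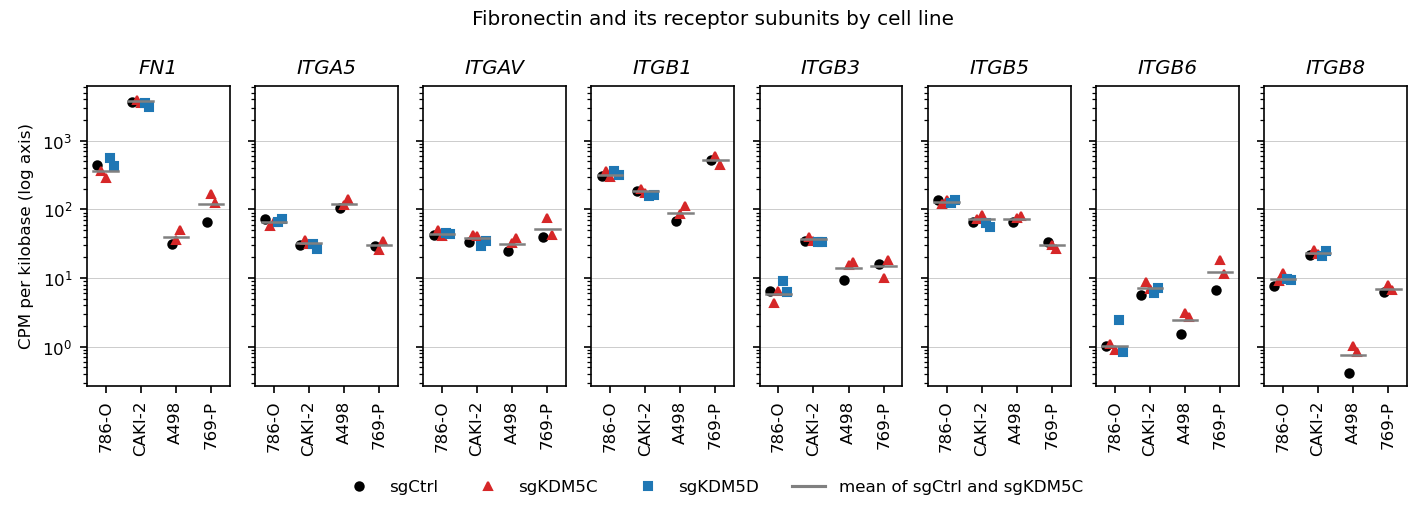
CPM per kilobase (log axis) of FN1 and the subunits of its receptors, 1 symbol per library by line, with grey lines at the line means. FN1 is highest in CAKI-2 and lowest in A498, ITGA5 is highest in A498, ITGAV is nearly level, and ITGB8 falls under 2 in A498 alone.

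The collagen-binding alpha subunits were low. ITGA1 was at 32.4, 42.7 and 52.6 CPM in A498 and at 4.20 to 16.1 CPM in the others. A gene on the same strand, PELO, lies inside it with up to 2758 counts against 1383 for ITGA1, so its counts are uncertain. ITGA2 was at 8.03 to 34.6 CPM, ITGA10 reached 3.11 CPM in A498 and at most 0.940 CPM elsewhere, and ITGA11 had at most 33 counts. ITGA4, a receptor for fibronectin and VCAM1, was at 3.74, 4.88 and 7.38 CPM in A498, at most 1.85 CPM in CAKI-2 and at most 0.249 CPM in the remaining lines, and shares an interval on the other strand with CERKL (up to 266 counts). ITGA9, a tenascin receptor subunit, had at most 17 counts.

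Several subunits that are best known from blood cells were present in these carcinoma lines. ITGAX (chr16:31366455-31394320 in GRCh37), of the complement receptor CR4 of dendritic cells, was at 95.3, 79.5 and 89.2 CPM in CAKI-2 and 65.4, 85.5 and 78.0 CPM in A498, against at most 0.723 CPM in 786-O and 2.92 CPM in 769-P. The fall from CAKI-2 to 786-O was 172-fold (adjusted p = 3.83e-12, edgeR). ITGAM, its neighbour in the same gene cluster and the subunit of CR3, was at 19.1, 26.5 and 27.4 CPM in CAKI-2 and at most 3.83 CPM in the rest. ITGAD, the third gene of the cluster, showed another pattern, at 13.9, 17.9 and 26.1 CPM in 769-P and at most 1.02 CPM in the others. ITGB2, the partner that all of them need, was at 9.56, 14.6 and 22.2 CPM in CAKI-2, 4.02, 8.10 and 1.90 CPM in 786-O, 2.55, 2.51 and 2.81 CPM in A498 and 0.823, 0.711 and 0.699 CPM in 769-P.

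The defining leukocyte markers were at or near 0 in the same libraries: PTPRC, the pan-leukocyte CD45, had at most 2 counts and CD3E had 0. LAPTM5 was the leukocyte marker with the most counts, 142 at most, and was highest in CAKI-2 (2.46 to 3.38 CPM). ITGAL, of the lymphocyte receptor LFA-1, had at most 51 counts. ITGAE and ITGB7, which form the receptor of intraepithelial lymphocytes, were at 17.1 to 28.4 CPM in all libraries and at 24.6 to 30.8 CPM in CAKI-2 against 1.71 to 5.15 CPM elsewhere, with overlapping genes on the other strand (HASPIN, up to 593 counts, and ZNF740, up to 1892 counts). ITGA2B, the alpha subunit of the platelet fibrinogen receptor, was at 5.37 to 6.52 CPM in CAKI-2, 1.96 to 4.09 CPM in A498 and at most 0.251 CPM in the other lines.

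Cytoplasmic and matrix partners of integrins, taken as 3 lists, also differed between lines. Of 25 genes of the adhesion complex, 21 were called, as were 15 of 15 genes of the basement membrane and its laminin receptors and 18 of 18 tested genes of other integrin ligands, against 91.6% of all genes, so that these counts do not set the lists apart. The largest differences in the first list were in LIMS2, an adaptor of the ILK complex (0.0452 ± 0.00990 CPM in CAKI-2, 9.65 ± 0.693 CPM in A498), TNS1, a tensin (5.76 ± 0.868 CPM in CAKI-2, highest in 769-P at 171 ± 29.7 CPM) and FERMT1, an epithelial kindlin (18.4 ± 2.27 CPM in CAKI-2, 1.59 ± 0.954 CPM in 769-P). The nidogens, which link laminin to collagen IV, went opposite ways: NID2 was highest in CAKI-2 (118 ± 13.9 CPM, 0.613 ± 0.223 CPM in 769-P), and NID1 was highest in 769-P (470 ± 36.9 CPM, 4.28 ± 0.413 CPM in CAKI-2). BCAM, a receptor for the LAMA5 chain, was at 209 ± 10.7 CPM in A498 and 158 ± 16.5 CPM in CAKI-2, against 7.25 ± 6.94 CPM in 786-O and 4.73 ± 0.464 CPM in 769-P. Among other ligands FGB, a fibrinogen chain, was at 416 ± 117 CPM in 769-P and at most 0.0593 CPM on average in the others, FBLN1 was at 312 ± 34.1 CPM in CAKI-2 and 0 in 786-O, and TNC was at 204 ± 57.9 CPM in 786-O and 0.0374 ± 0.0357 CPM in 769-P.

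Mutation of KDM5C gave no member that passed the adjusted test. For the mean effect over the 4 lines, 0 of 38 members were called by edgeR (background 0.00991%), 5 had an unadjusted p under 0.05 (background 5.18%), all 5 being higher with the KDM5C guides (background for that direction 3.43%), and DESeq2 called 1 (background by that tool 0.129%). The controls were single libraries, so that each was assumed to vary as the groups with 2 guides do. The median log2 fold change of the members was 0.13, against 0.04 over all genes tested. The fitted change was above 0 in 31 of 38 members. The share of all genes above 0 was not taken, so this count and those that follow do not mark the members. The 12 laminin chains all had fitted mean changes above 0 (median 0.13), none of them with an unadjusted p under 0.05. That of LAMC3 is not an estimate, since 786-O had 0 counts of it. LAMA1 and LAMA4 had at most 2 and 1 counts in a library of 769-P, and LAMB4 at most 1 in 786-O. The signs of their means are therefore uncertain. By line the number above 0 was 4 in 786-O (median -0.02), 7 in CAKI-2 and 10 in each of A498 and 769-P.

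ITGB8 was the member with the smallest p in that comparison. Its 8 sgKDM5C libraries were all above the control of their line, by 0.07 to 1.25 on the log2 scale, and the mean log2 fold change was 0.49 (SE 0.108, adjusted p = 0.519, edgeR). DESeq2 gave 0.50 with an adjusted p of 0.0150. With edgeR the change was 0.52 without guide 5 and 0.45 without guide 4. Of 14 alternative settings, 11 left ITGB8 without a call. Of the 4 KDM5D libraries, 3 were above their control. In A498, where ITGB8 was lowest, it was at 3.79 CPM in the control and 9.15 and 7.49 CPM with the KDM5C guides. Without A498 the mean log2 change was 0.28.

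ITGB6, ITGAV and ITGA1 were each above the control in 7 of 8 KDM5C libraries, with mean log2 changes of 0.63 (SE 0.220), 0.36 (SE 0.128) and 0.45 (SE 0.168) and an adjusted p of 0.901 each (edgeR). FN1 was above it in 5 of 8, with a mean of 0.29 (SE 0.123), and this value was 0.01 without 769-P. Beyond ITGB6, the largest positive values among members that reached 20 counts on average were in ITGA2B (0.78, SE 0.462) and LAMA4 (0.70, SE 0.934), and the largest negative ones in ITGA10 (-0.43, SE 0.372), ITGA7 (-0.25, SE 0.189) and ITGA3 (-0.16, SE 0.101). None of these 5 had an unadjusted p under 0.05, LAMA4 was at -0.003 without guide 4, and ITGA2B was at 0.18 without 786-O.

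**Figure D5:**
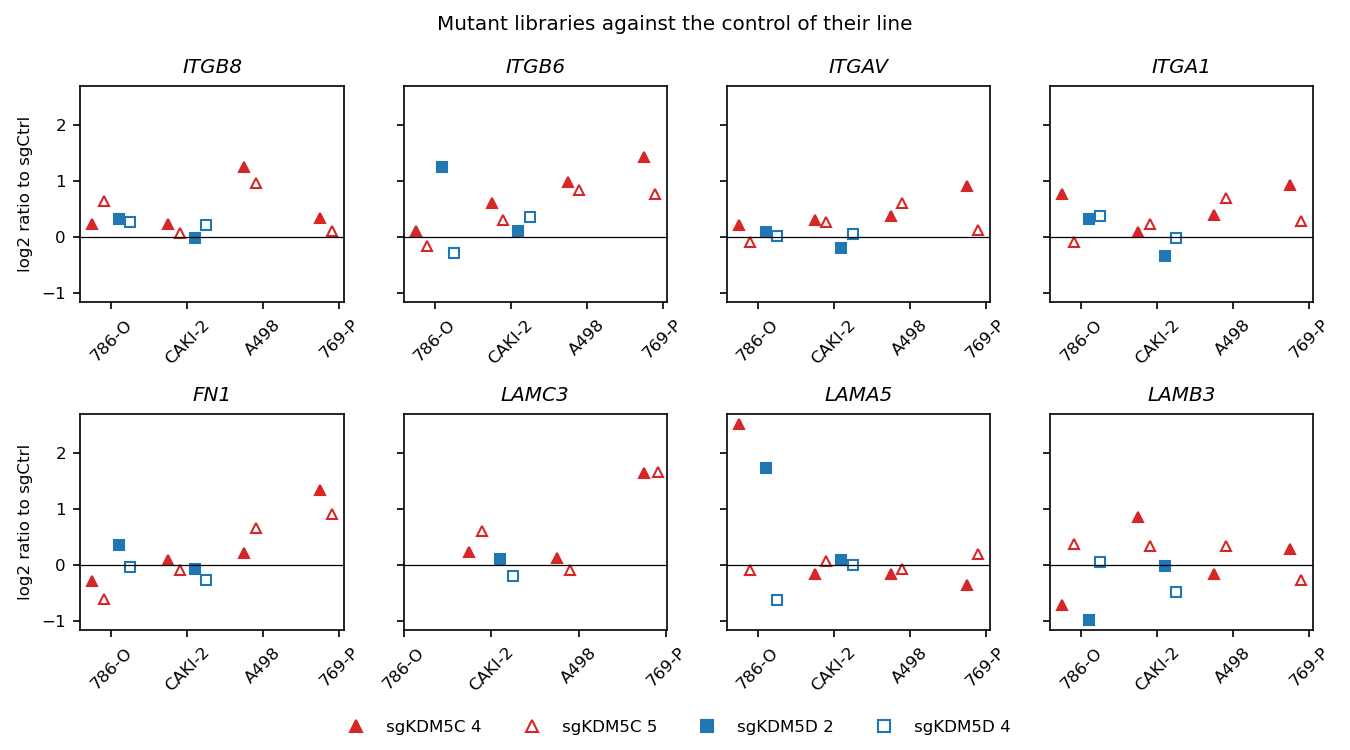
Log2 ratio of each mutant library to the control library of its line (prior count 2) for 8 members, with KDM5C guides as triangles and KDM5D guides as squares and the zero line drawn. ITGB8 lies above 0 in all 8 KDM5C libraries, FN1 and LAMC3 are raised by both KDM5C guides in 769-P, and LAMA5 and LAMB3 in 786-O move in opposite directions with sgKDM5C 4 and sgKDM5D 2; ratios with at most 3 counts on both sides are left out.

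Within single lines edgeR called 0 of 38 members each time. In 786-O the background was 0.00991%, 2 members had an unadjusted p under 0.05 (ITGA2B and ITGB8, both higher; background 2.92%, and 1.78% for that direction) and DESeq2 called 0 (background 0.114%). ITGA2B rested there on 1 count in the control against 7 with each guide. In CAKI-2 the background was 0%, 1 member passed unadjusted (LAMA1, log2 change -0.55, SE 0.205; background 1.94%) and DESeq2 called 0 (background 0.0198%). In A498 the background was 0.00496%, and 5 members, ITGB8, LAMB1, ITGB3, LAMB4 and ITGB1, passed unadjusted, all higher (background 5.54%, and 3.53% for that direction). ITGB8 was the 1 member that DESeq2 called there (background 0.183%, log2 change 1.14, adjusted p = 0.0190, edgeR adjusted p = 0.480). DESeq2 gave 14 of the 38 members no adjusted p in A498.

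In 769-P the background was 0.00496%, and LAMC3, FN1, ITGB6 and ITGAV passed unadjusted, all higher (4 members; background 3.32%, and 2.3% for that direction). LAMC3 was at 1.77 CPM in the control and 5.69 and 5.80 CPM with the guides (log2 change 1.70, SE 0.308, edgeR adjusted p = 0.881). FN1 was at 551 CPM in the control and 1389 and 1038 CPM with the guides (log2 change 1.14, SE 0.257, edgeR adjusted p = 1). DESeq2 called these 2 (adjusted p = 0.0190 for both, background 0.0397%). In 786-O both KDM5C libraries had less FN1 than the control, so that the direction was not shared.

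When the effects of the KDM5C guides in the 4 lines were tested against each other, 0 members were called (edgeR, background 0%), whereas FN1, LAMC3, LAMA1 and ITGB8 had an unadjusted p under 0.05 (4 members; background 2.29%) and DESeq2 called 0 (background 0.0743%). Guide 5 against guide 4 of KDM5C gave 0 calls (background 0%), with ITGB3 higher (log2 difference 0.37, SE 0.160) and ITGB6 lower (-0.32, SE 0.137) unadjusted (2 members; background 3.95%), and 0 by DESeq2 (background 0%).

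The KDM5D guides likewise left the members without a call. In 786-O 0 were called by edgeR (background 0.0149%), and ITGAM (-1.79, SE 0.611) and LAMA1 (-1.001, SE 0.418) were lower unadjusted (2 members; background 1.82%), both in transcripts under 1 CPM there, with 0 by DESeq2 (background 0.0297%). In CAKI-2 0 members passed with or without adjustment (backgrounds 0% and 0.768%) and 0 by DESeq2 (background 0%). The KDM5D effect did not separate 786-O from CAKI-2 (0 called by edgeR, background 0.00496%), with ITGAM alone passing unadjusted (1 member; background 1.47%).

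KDM5C guides against KDM5D guides, a contrast that does not use the control library, gave 0 calls by edgeR in both lines. In 786-O (background 0.0644%) ITGAM was higher (1.98, SE 0.499, adjusted p = 0.386) and FN1 lower (-0.60, SE 0.199, adjusted p = 0.672) with the KDM5C guides, the 2 members with an unadjusted p under 0.05 (background 4.78%). In CAKI-2 (background 0%) LAMA1 was lower and ITGB5, LAMC3 and LAMB3 were higher unadjusted (4 members; background 3.38%). DESeq2 called 0 in each (backgrounds 0.273% in 786-O, 0.149% in CAKI-2). FN1 in 786-O was at 3014 and 2419 CPM with the KDM5C guides and 4668 and 3574 CPM with the KDM5D guides. The control, at 3664 CPM, lay above both KDM5C libraries and within the range of the KDM5D libraries.

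In the 3 partner lists, 0 genes were called by edgeR for the mean KDM5C effect. Unadjusted (background 5.18%, and 3.43% for higher), 2 of 25 genes of the adhesion complex passed (FERMT1 and FERMT2, kindlins, both higher, whereas the kindlin FERMT3 was at -0.01), 4 of 15 of the basement membrane list (NID2, COL4A1 and COL4A2 higher, COL17A1 lower) and 3 of 18 other ligands (LTBP1, CCN2 and COL1A1, higher). COL4A1 and COL4A2, the chains of the collagen network to which laminin is linked, had log2 changes of 0.38 (SE 0.109) and 0.37 (SE 0.103), with adjusted p = 0.836 for each. All 18 tested genes of the last list had a positive mean change, with a median of 0.26 against 0.04 over all genes. FBLN1 and NPNT were at 0 CPM in 786-O, and FGB in CAKI-2 and A498, so their mean changes are not estimates. TNC in 769-P (0.0374 CPM) and VCAM1 in CAKI-2 (0.0321 CPM) had almost no counts, so the signs of their means are uncertain. By line, however, the number above 0 was 15 in 769-P (median 0.25), 14 in A498 (0.54), 10 in CAKI-2 (0.11) and 7 in 786-O (-0.002). The share of all genes above 0 was not taken beside these counts.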

How the data were processed

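Raw counts per gene and library were used as deposited by the authors. Per the labels, paired-end reads of TruSeq Stranded libraries were processed with Trimmomatic 0.38 and STAR 2.5.2b on GRCh37; the counting tool, annotation and use of strand are not given in the sources used here, so members that overlap other genes are uncertain. The header names no gene column, so library names were shifted by 1 column. Of 57773 gene IDs, 55538 were matched to GENCODE symbols. The 20175 genes that summed to 60 counts or more were fitted with edgeR 4.0.16 (R 4.3.3, quasi-likelihood F-test, TMM, 10 group means, 6 residual degrees of freedom), with the Benjamini-Hochberg adjustment over all genes and calls at an adjusted p under 0.05. Common dispersion was 0.0231. Guide 5 against guide 4 was fitted to the 8 KDM5C libraries with a term for cell line. SE was taken as the log2 change over the root of F. DESeq2 1.42.0 was the other tool. It gave no adjusted p to 9 members for the mean KDM5C effect, 4 in 786-O and 14 in A498. For KDM5C against KDM5D these were 4 in 786-O and 5 in CAKI-2. Genes without an adjusted p counted as not called, and its backgrounds are shares of all 20175 genes. Members and lists were chosen with earlier results of these data known. Named were members with the 20 largest line differences, fixed subunits, members with the largest mean KDM5C effects, and 3 genes per list. Members with an unadjusted p under 0.05 were added. The procedure was tested on simulated data. Results for 1 gene are not reported here.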

Additional observations from a re-analysis of the deposited data

How the results depend on the processing

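The 29 line differences examined gave 290 values under the alternatives, of which 289 kept their direction and call; ITGAV, 769-P over A498, missed the threshold with control libraries alone (0.65, adjusted p = 0.0753). In guide comparisons, 303 of 324 values stayed on the same side, 20 newly passed and 1 changed sign (LAMA4 mean effect, -0.003 without guide 4 and 0.889 without guide 5). Without the filter on low counts, the members called rose from 0 to 5 for the mean KDM5C effect, 1 in 786-O, 1 in A498, 3 in 769-P, 2 for the difference between lines, 1 for KDM5D in 786-O, and 3 and 1 for KDM5C against KDM5D in 786-O and CAKI-2; for the adhesion complex, basement membrane and other ligand lists they became 1, 2 and 2. DESeq2 called 1 member for the mean, 1 in A498 and 2 in 769-P. Fits to the libraries of 1 line called 3 in A498 and 1 in 769-P. Leaving out a KDM5C guide gave 0 to 2 members for the mean (2 without guide 5), and 0 to 2 in the adhesion and 0 to 1 in the other ligand list, which was also 1 without the 786-O line and 1 without the sgKDM5C 4 library of 786-O, an alternative chosen after seeing the data. The cause was not tested. Except for DESeq2, the share of all genes called under each alternative was not taken beside these counts, so they do not mark the members. With the guide number as a replicate block, 0 members were called for the mean effect and 37 between lines; the differences between guides 5 and 4 correlated between lines at -0.228 to 0.293, so that the numbers were not taken to pair libraries. Single control libraries limit every guide comparison, and genes with few counts are measured imprecisely.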
